A study of Arabidopsis thaliana with 6 samples.

Results

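The clade B protein phosphatases of type 2C in *Arabidopsis* are *AP2C1* (AT2G30020), *AP2C2* (AT1G07160), *AP2C3* (AT2G40180), which the RefSeq table names *PP2C5*, and *AP2C4* (AT1G67820). They were examined together with 3 mitogen-activated protein (MAP) kinases on which they act, *MPK3* (AT3G45640), *MPK4* (AT4G01370) and *MPK6* (AT2G43790). The members were listed by locus with earlier results of these arrays known, including that *AP2C3* was higher, and every probe whose transcript mapped to one of the 7 loci was kept. This gave 8 probes, 2 of them for *MPK4*, among the 43603 probes of the array and among 25433 genes with at least 1 probe.

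Messenger RNA of aerial tissue was compared in 17-day-old plants of OsbHLH068OE (3 arrays) and of Col-0, the wild-type accession (3 arrays). OsbHLH068OE carries *OsbHLH068*, a basic/helix-loop-helix transcription factor gene of rice, in the Col-0 background, and the paper names the hybridized line *35S::OsbHLH068* (9). The 35S promoter of cauliflower mosaic virus is active in most plant cells. Only that line was hybridized, so on these arrays alone effects of the rice protein and of the place where the transgene had inserted cannot be told apart. The probes are those of *Arabidopsis* transcripts, and the level of the rice transgene itself was not read. No salt or other stress treatment was given in the labels of these plants.

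Each array was read in 1 color (Cy3) on the Agilent *Arabidopsis* V4 design. The median spot signal was 284 to 322 intensity units on OsbHLH068OE arrays and 311 to 356 on Col-0 arrays, 70.9% to 74.0% of probe spots were well above background, and 0 spots were saturated. The slides were 2, each with both groups: slide 1 held the replicates numbered 1, and slide 2 held those numbered 2 and 3. The design text speaks of biological repeats. According to the methods a pooling step preceded hybridization, and what was combined in it is not given, so the P-values measure the spread between these arrays. All 39 probes of the green-leaf markers (*RBCS1A*, *CAB1*, *CA1* and *RCA*) were well above background on every array, with a summed signal of 5505659 to 5550996 in OsbHLH068OE and 5392298 to 5496024 in Col-0. Of 11 root-marker probes, the 7 of *PYK10* were well above background on all 6 arrays. Those of *RHD6*, *PLT1* and *EXPA7* were so on 0 arrays, and that of *COBL9* on 1 array of each group. The 11 probes summed to 5762 to 7812 in OsbHLH068OE and 4520 to 6644 in Col-0. The 6 probes of the flower markers *AP3*, *PI*, *AG* and *SEP3* were above background on every array and summed to 3959 to 5779 in OsbHLH068OE and 5099 to 7535 in Col-0. Within that sum the probes of *SEP3* had log2 fold changes of −0.78 and −0.91 (limma adjusted P = 0.209 and 0.123), and those of *AG* had 0.55 and 0.53 (limma adjusted P = 0.228 and 0.254). In whole aerial tissue, fewer cells of a type and less mRNA per cell cannot be told apart.

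MAP kinases are switched on when an upstream MAP kinase kinase phosphorylates a threonine and a tyrosine in their activation loop, and they are switched off when a phosphatase removes either phosphate. Clade B enzymes bind MAP kinases through a docking motif and remove the phosphate from the threonine. In *Arabidopsis*, *MPK3*, *MPK4* and *MPK6* relay wounding, pathogen, cold, salt and drought signals, and *MPK3* and *MPK6* also restrain the divisions that form stomata.

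The sequences of 3 of the phosphatase probes are shown because *AP2C3* and *AP2C2* are close relatives and a reader needs to see how alike their probes are. Each is written from the 5′ to the 3′ end as listed in the supplementary tables of the study. Capitals mark the bases that *AP2C3* and *AP2C2* share in their best alignment without gaps. *AP2C1* is in lower case throughout because it was not part of that alignment.
AP2C3: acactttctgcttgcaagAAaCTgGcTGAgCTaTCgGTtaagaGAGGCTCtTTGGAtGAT
AP2C2: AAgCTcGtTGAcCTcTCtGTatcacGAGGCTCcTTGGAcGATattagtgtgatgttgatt
AP2C1: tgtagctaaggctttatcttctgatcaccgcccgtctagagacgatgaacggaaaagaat
Each probe is 60 bases long and has 27 G or C bases. The *AP2C3* and *AP2C2* probes overlap in 42 aligned bases, 29 of which are identical, and the longest run that both share without a mismatch is 7 bases. The best alignment of *AP2C3* with *AP2C1* had 20 identities over 57 bases, and that of *AP2C2* with *AP2C1* had 19 over 56. Bases of a probe outside the overlap were not compared with the transcript of its paralog. How much signal a probe takes from that transcript was not tested.

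*AP2C3* was higher in OsbHLH068OE on every array. AP2C3 protein acts on MPK3, MPK4 and MPK6 and, when overproduced, raises the number of stomata. On the normalized log2 scale its probe read 7.36, 7.42 and 7.52 in OsbHLH068OE replicates 1, 2 and 3, against 4.69, 5.52 and 5.72 in Col-0 replicates 1, 2 and 3. The lowest OsbHLH068OE array was thus well over the highest Col-0 array, and the OsbHLH068OE values lay close together while Col-0 replicate 1 was low. The means were 7.43 ± 0.0790 and 5.31 ± 0.547 (SD, n = 3 each). The log2 fold change was 2.12 (standard error 0.269, 95% confidence interval 1.47 to 2.78), which is 4.36-fold, with a limma P of 0.000212 and an adjusted P of 0.0468.

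The spot signals behind these values were modest. Before background correction, the *AP2C3* spot gave 194, 209.5 and 230 intensity units in OsbHLH068OE replicates 1 to 3, against 75, 95 and 95 in Col-0 replicates 1 to 3. The local background at these spots was 28 to 35.5 units in OsbHLH068OE and 27 to 30 in Col-0, and the size of the fold change moved with the correction for it. It was 1.30 on the log2 scale with an offset of 50 added after normexp and 1.34 with no background correction. The direction and the call as a differentially expressed probe (DEP; log2 fold change above 1 or below −1 and unadjusted P under 0.05) were kept in all 18 alternative fits.

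The adjusted P of *AP2C3* was less steady. It was under 0.05 in 9 of those 18 fits and ranged from 0.00698 to 0.234. Leaving out Col-0 replicate 1 gave 0.0325, and leaving out any other array gave 0.103 to 0.234. With the slide as a block it was 0.0388, and the difference was 2.67 within slide 1 and 1.85 within slide 2.

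*AP2C2* was also higher in OsbHLH068OE. It encodes an enzyme of the same clade, and its probe is the one shown above to overlap that of *AP2C3*. The probe read 7.99, 7.63 and 7.80 in OsbHLH068OE replicates 1, 2 and 3, against 5.88, 5.92 and 6.97 in Col-0 replicates 1, 2 and 3. The groups did not overlap, and Col-0 replicate 3 stood above the other Col-0 arrays. The means were 7.81 ± 0.181 and 6.26 ± 0.618 (SD, n = 3 each), and the log2 fold change was 1.55 (standard error 0.310, 95% confidence interval 0.79 to 2.31), or 2.93-fold. The limma P was 0.00242 and the adjusted P 0.0959, so that *AP2C2* was a DEP but did not pass at an adjusted P of 0.05.

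The uncorrected *AP2C2* spots gave 269.5, 238 and 275 units in OsbHLH068OE and 107, 114 and 170 units in Col-0. *AP2C2* was a DEP in all 18 alternative fits, with log2 fold changes of 1.36 to 1.90 as each array was left out. The highest of these came without Col-0 replicate 3. The difference was 2.11 within slide 1 and 1.27 within slide 2, and with the slide as a block the adjusted P was 0.0744. It was under 0.05 in 4 of the 18 fits (lowest 0.0376, highest 0.277).

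The remaining phosphatases did not rise. *AP2C1*, a wound-induced enzyme that inactivates MPK4 and MPK6, read 9.23, 9.18 and 9.24 in OsbHLH068OE replicates 1 to 3, against 9.71, 9.69 and 9.47 in Col-0 replicates 1 to 3. All OsbHLH068OE values were under all Col-0 values, but the separation was small. The log2 fold change of −0.41 (95% confidence interval −0.64 to −0.18) is 1.33-fold lower, within the fold limit for a DEP, with a limma P of 0.00462 and an adjusted P of 0.116. Within slides it was −0.48 on slide 1 and −0.37 on slide 2, and with the slide as a block the adjusted P was 0.0735. The limma adjusted P was under 0.05 in 2 of the 18 alternative fits (lowest 0.0463, highest 0.317).

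*AP2C4* encodes the fourth enzyme of the clade. Its probe read 8.47, 8.30 and 8.47 in OsbHLH068OE replicates 1 to 3, against 8.77, 8.24 and 8.43 in Col-0 replicates 1 to 3. The groups overlapped, with both the highest and the lowest value in Col-0. The log2 fold change was −0.07 (95% confidence interval −0.44 to 0.31), with a limma P of 0.676 and an adjusted P of 0.833. It turned to 0.080 without Col-0 replicate 1.

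*MPK3*, a kinase of early defense and stress signaling whose own transcript is stress-induced, had the largest difference among the 3 kinases. Its probe read 10.75, 11.32 and 11.41 in OsbHLH068OE replicates 1, 2 and 3, against 11.76, 12.32 and 12.14 in Col-0 replicates 1, 2 and 3. Every OsbHLH068OE array was under every Col-0 array, and in both groups replicate 1, on slide 1, was the lowest. The log2 fold change was −0.91 (standard error 0.226, 95% confidence interval −1.46 to −0.36), or 1.88-fold lower, with a limma P of 0.00675 and an adjusted P of 0.128. It did not reach the fold limit for a DEP.

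The *MPK3* difference was −1.01 within slide 1 and −0.86 within slide 2, and with the slide as a block the limma adjusted P was 0.0404. This was the only 1 of the 18 alternative fits with an adjusted P under 0.05, and the highest was 0.328. With that block 1015 of all probes had an adjusted P under 0.05, against 233 without it. *MPK3* became a DEP when OsbHLH068OE replicate 3 (−1.04) or Col-0 replicate 1 (−1.07) was left out, and the value without OsbHLH068OE replicate 1 was −0.71.

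*MPK4*, which holds back salicylic acid-dependent defense, was read by 2 probes. The probe A_84_P24174 gave 11.62, 11.79 and 11.78 in OsbHLH068OE, against 11.63, 11.99 and 11.86 in Col-0. The probe A_84_P817238 gave 11.06, 11.27 and 11.18 in OsbHLH068OE, against 11.13, 11.47 and 11.33 in Col-0. The groups overlapped for both probes, and the log2 fold changes of −0.09 (95% confidence interval −0.38 to 0.19, limma adjusted P = 0.691) and −0.14 (−0.43 to 0.14, limma adjusted P = 0.533) were alike.

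*MPK6*, which shares upstream kinases and many substrates with *MPK3*, read 11.88, 11.95 and 12.01 in OsbHLH068OE, against 12.02, 12.18 and 12.17 in Col-0. The groups did not overlap, but the nearest arrays of the groups were almost level. The log2 fold change was −0.18 (95% confidence interval −0.39 to 0.03), with a limma P of 0.0837 and an adjusted P of 0.311, and it was −0.14 within slide 1 and −0.19 within slide 2. For *MPK4* and *MPK6* these intervals leave out a change as large as the fold limit for a DEP in either direction.

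**Figure D1:**
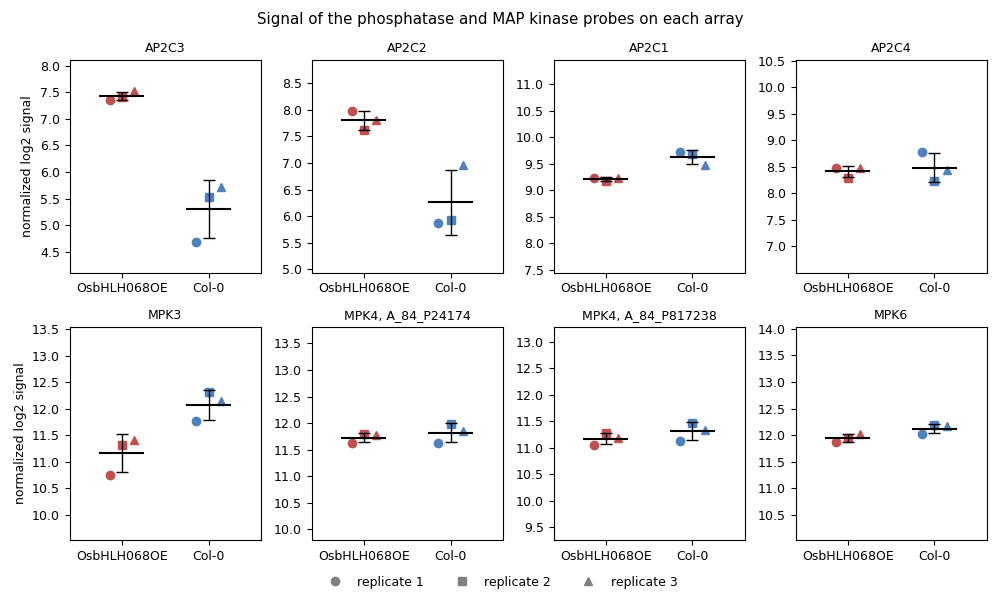
Normalized log2 signal (vertical axis, with the same span in every panel) of each member probe on each array, for OsbHLH068OE on the left and Col-0 on the right of a panel; horizontal lines and bars are the mean and SD of 3 arrays, and symbols are replicate numbers. *AP2C3* and *AP2C2* were higher on all OsbHLH068OE arrays, *AP2C1*, *MPK3* and *MPK6* were lower without overlap, and *AP2C4* and both *MPK4* probes overlapped.

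Over the 8 member probes, 2 were DEPs, both of them higher. *AP2C3*, 1 of these 2, was known to be higher when the members were listed. Its part in the counts of this paragraph was therefore set by that choice. Over all probes of the array, 0.385% were DEPs that were higher and 0.784% DEPs that were lower, 1.17% in all. An adjusted P under 0.05 was reached by 1 member probe, that of *AP2C3*, against 0.534% of all probes. An unadjusted P under 0.05 was reached by 4 member probes, 2 higher and 2 lower, against 19.8% of all probes, 11.0% higher and 8.80% lower. The groups did not overlap for 5 member probes, 2 higher and 3 lower, and over all probes this was so for 27.0%, 14.8% higher and 12.2% lower. The log2 fold change was above 0 for 2 member probes and below 0 for 6, among them all 4 kinase probes, 2 of which are of *MPK4*. Over all probes, it was above 0 for 23196 and below 0 for 20407. The median of the 8 was −0.12, against 0.020 over all probes.

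The spread of each of the 4 phosphatases was larger in Col-0 than in OsbHLH068OE. The Col-0 SDs of *AP2C3* and *AP2C2* (0.547 and 0.618) were larger than those of 94.1% and 95.6% of all probes in Col-0, where the median SD was 0.163. Their OsbHLH068OE SDs (0.0790 and 0.181) were at percentiles 30.5 and 64.8 of all probes in OsbHLH068OE, where the median SD was 0.125. *AP2C3* was lowest in Col-0 replicate 1, and *AP2C2* was highest in Col-0 replicate 3. The SDs in OsbHLH068OE and Col-0 were 0.0329 and 0.133 for *AP2C1*, and 0.102 and 0.271 for *AP2C4*. The Col-0 spots of *AP2C3* gave only 75 to 95 units over a local background of 27 to 30. The percentiles were taken over probes of all intensities.

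Whether the phosphatases differed from each other in their change was examined within arrays, as the difference between the log2 signals of a pair of probes, which cancels the brightness of an array. Relative to *AP2C1* on the same array, *AP2C3* was higher in OsbHLH068OE than in Col-0 by 2.53 on the log2 scale and *AP2C2* by 1.96. *AP2C4* changed relative to *AP2C3* by −2.19 and relative to *AP2C2* by −1.62. It also differed from *AP2C1*, by 0.34. For these 5 pairs the arrays of the groups did not overlap, and the exact two-sided permutation test gave P = 0.1, the smallest that 3 arrays against 3 allow (0.12 after Benjamini-Hochberg adjustment over the 6 pairs), so no pair could pass 0.05. For *AP2C3* relative to *AP2C2* the change was 0.57, the arrays overlapped, and the exact permutation P was 0.2 (adjusted 0.2). No interval was computed for the pairs, and the last value does not show that both genes changed alike.

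Relative to the mean of *MPK3*, *MPK4* and *MPK6* on the same array, the signal of *AP2C3* was higher in OsbHLH068OE than in Col-0 by 2.52 and that of *AP2C2* by 1.95, without overlap (exact two-sided permutation P = 0.1 each, 0.2 after adjustment over the 4 phosphatases). *AP2C4* differed by 0.34 (exact permutation P = 0.3, adjusted 0.4). *AP2C1* differed by −0.0077 (exact permutation P = 0.9, adjusted 0.9), since its own signal and the mean of the kinases were lower by about as much. That mean was lower mostly through *MPK3* (−0.91), with *MPK4* at −0.09 and −0.14 by its probes and *MPK6* at −0.18. Among the kinases, *MPK3* differed from the mean of *MPK4* and *MPK6* by −0.76 without overlap (exact permutation P = 0.1), a comparison chosen after the values were seen. These ratios are of mRNA signal on an array and carry no measure of protein or of kinase activity.

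**Figure D2:**
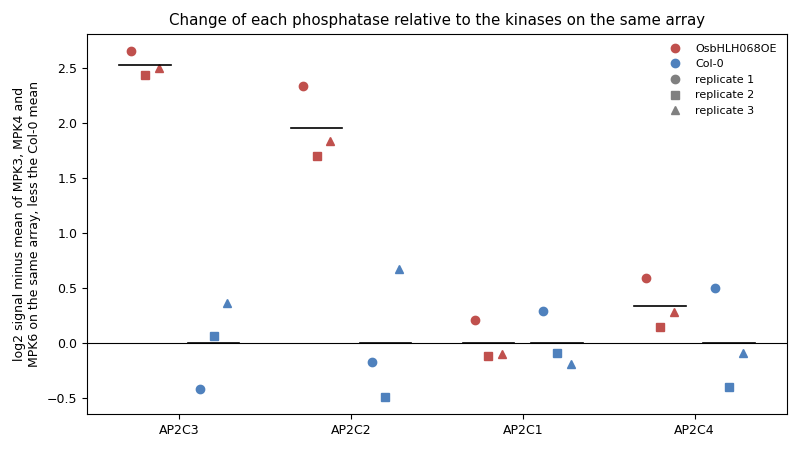
Log2 signal of each phosphatase minus the mean log2 signal of *MPK3*, *MPK4* and *MPK6* on the same array, with the Col-0 mean of each phosphatase set to 0 (vertical axis), for OsbHLH068OE (left, red) and Col-0 (right, blue); symbols are replicate numbers and short lines are means of 3 arrays. The means in OsbHLH068OE lie at 2.52 for *AP2C3*, 1.95 for *AP2C2*, −0.0077 for *AP2C1* and 0.34 for *AP2C4*.

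The rest of the MAP kinase cascade was described from lists of 60 genes with 86 probes, arranged by their place in the pathway. Of these probes, 0 were DEPs that were higher and 5 were DEPs that were lower, against 0.385% and 0.784% of all probes. Their log2 fold changes were above 0 for 42 and below 0 for 44, against 23196 and 20407 over all probes. The median was −0.0032, against 0.020 over all probes. An adjusted limma P under 0.05 was reached by 2 probes, both of *MYB44*. The 5 DEPs were all in the list of substrates and partners, and the lists of kinases and of other phosphatases had 0.

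At the top of the cascade, the MAP kinase kinase kinases (9 genes, 11 probes) included 0 DEPs. Their log2 fold changes ran from −0.52 to 0.29, with −0.05 as the median. An unadjusted limma P under 0.05 was found for 1 of these probes, against 19.8% of all probes. It was a probe of *MEKK2* (−0.52, limma adjusted P = 0.252), whose other probe had −0.15 (limma adjusted P = 0.690). *YDA*, the kinase that heads the stomatal branch, had 0.15 (95% confidence interval −0.15 to 0.44).

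The MAP kinase kinases (10 genes, 11 probes) included 0 DEPs and had a median of −0.0034. An unadjusted limma P under 0.05 was found for 2 of them, against 19.8% of all probes. *MKK4*, which phosphorylates MPK3 and MPK6, was named after its values were seen. Its probe read 9.68, 9.83 and 9.80 in OsbHLH068OE replicates 1 to 3, against 10.32, 10.64 and 10.42 in Col-0 replicates 1 to 3. The groups were well apart, and the log2 fold change was −0.69 (95% confidence interval −0.96 to −0.43), within the fold limit, with a limma P of 0.000719 and an adjusted P of 0.0683. *MKK5*, its partner in the same step, had −0.19 (95% confidence interval −0.48 to 0.09, limma adjusted P = 0.399).

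The other MAP kinases (17 genes, 27 probes) included 0 DEPs and had a median of 0.13, with an unadjusted limma P under 0.05 for 4 probes that were higher and 4 that were lower, against 11.0% and 8.80% of all probes. The most extreme values, named after they were seen, belonged to *MPK11* and *MPK18*. *MPK11*, the nearest relative of *MPK4*, read 7.23, 7.74 and 7.55 in OsbHLH068OE, against 7.68, 10.27 and 9.04 in Col-0. Col-0 replicates 2 and 3 were high while Col-0 replicate 1 lay among the OsbHLH068OE arrays, and the log2 fold change of −1.49 had a limma P of 0.054 (95% confidence interval −3.02 to 0.04). *MPK18*, a kinase linked to cortical microtubules, read 12.32, 12.03 and 11.82 in OsbHLH068OE, against 11.50, 11.26 and 11.33 in Col-0. For *MPK18* the log2 fold change was 0.69 (limma adjusted P = 0.106), without overlap between the groups.

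The dual-specificity and tyrosine phosphatases that also switch off MAP kinases (6 genes, 7 probes) included 0 DEPs, with log2 fold changes of −0.41 to 0.18 and a median of 0.017. An unadjusted limma P under 0.05 was found for 1 probe, against 19.8% of all probes. That probe was of *IBR5* (−0.41, limma adjusted P = 0.224), a dual-specificity phosphatase of auxin responses. The 2 probes of *MKP1*, which acts on MPK3 and MPK6, had −0.03 (95% confidence interval −0.22 to 0.17) and 0.02 (−0.18 to 0.22). *PTP1*, a tyrosine phosphatase that works alongside *MKP1*, had −0.05 (−0.32 to 0.21).

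Among MAP kinase substrates and partners (18 genes, 30 probes), 5 probes of 4 genes were DEPs and all 5 were lower. An unadjusted limma P under 0.05 was found for 1 probe that was higher and 8 that were lower. The groups did not overlap for 5 probes that were higher and 10 that were lower, and the median of the list was −0.03. Over all probes, 0.784% were DEPs that were lower, 11.0% and 8.80% had such a P and were higher or lower, and 14.8% and 12.2% did not overlap and were higher or lower. *MYB44*, a stress-induced MYB transcription factor that MPK3 and MPK6 phosphorylate, was lower by both of its probes. The probe A_84_P13173 read 11.89, 11.86 and 12.19 in OsbHLH068OE, against 14.63, 14.61 and 14.01 in Col-0. The probe A_84_P807259 read 6.71 to 7.10 in OsbHLH068OE, against 9.13 to 9.55 in Col-0. Both log2 fold changes were −2.44, with limma adjusted P-values of 0.0279 and 0.0257.

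*ACS6*, an ethylene biosynthetic enzyme stabilized by MPK6, read 9.51, 9.80 and 10.49 in OsbHLH068OE, against 11.59, 11.02 and 11.45 in Col-0. For *ACS6* the log2 fold change was −1.42 (limma adjusted P = 0.0958). *ERF6*, an ethylene response factor phosphorylated by MPK3 and MPK6, was a DEP by the probe A_84_P820417 (−1.62, limma adjusted P = 0.104) and not by the probe A_84_P290684 (−0.80, limma adjusted P = 0.143), with no overlap for either. *WRKY33*, a regulator of camalexin synthesis that the same kinases activate, read 9.84, 10.51 and 11.09 in OsbHLH068OE, against 11.20, 11.60 and 11.87 in Col-0. For *WRKY33* the log2 fold change was −1.08 (limma adjusted P = 0.181), just past the fold limit, and the highest OsbHLH068OE array nearly reached the lowest Col-0 array.

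**Figure D3:**
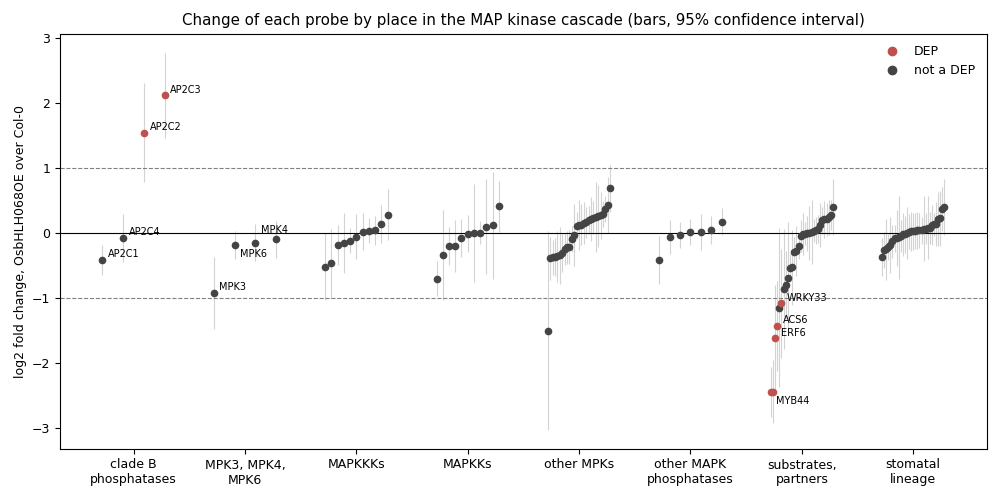
Log2 fold change, OsbHLH068OE over Col-0 (vertical axis), of every probe of the members and of each list, ordered by value within a list; gray bars are 95% confidence intervals, red points are DEPs and dashed lines mark the fold limit of 1 and −1. *AP2C3* and *AP2C2* are the DEPs above 0, and the 5 DEPs below 0 are probes of *MYB44*, *ERF6*, *ACS6* and *WRKY33*.

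Because overproduced AP2C3 alters stomatal development, the stomatal lineage and guard cell genes (23 genes, 31 probes) were read alongside it. This list shares *MPK12*, *SPCH* and *ICE1* with the lists above. It included 0 DEPs, against 1.17% of all probes. Of its probes, 19 were above 0 and 12 below 0, against 23196 and 20407 over all probes. Their median was 0.03, against 0.020 over all probes, and their values ran from −0.36 to 0.40. An unadjusted limma P under 0.05 was found for 1 probe that was higher (*EPF2*, a peptide that limits entry into the lineage, 0.38) and 2 that were lower (*MPK12*, a guard cell kinase, −0.36, and *EPFL9*, a peptide that promotes stomata, −0.21). Over all probes, 11.0% had such a P and were higher, and 8.80% had one and were lower. *SPCH*, which starts the lineage and is itself a substrate of MPK3 and MPK6, read 8.41, 8.56 and 8.09 in OsbHLH068OE, against 8.19, 7.70 and 7.98 in Col-0. The groups overlapped, and the log2 fold change was 0.40 (95% confidence interval −0.03 to 0.83, limma adjusted P = 0.275).

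Genes next to *AP2C3* and *AP2C2* on the chromosome were read as well, a choice made after the values were seen. Of the 8 protein-coding genes that flank them, 2 on either side of each, 7 had a probe. Of their 9 probes 0 were DEPs, against 1.17% of all probes, and 3 had an unadjusted limma P under 0.05, against 19.8% of all probes. These were *GEA6* beside *AP2C3*, and AT1G07170 (−0.28) and AT1G07175 (−0.33) beside *AP2C2*. Beside *AP2C3*, the 4 probes were all above 0, where over all probes 23196 were above and 20407 below 0. The adjacent *GEA6*, a late embryogenesis abundant protein gene, had 0.72 (limma adjusted P = 0.141) and was well above background on 2 of 3 OsbHLH068OE arrays and 0 of 3 Col-0 arrays. *LEW3*, on the other side, had 0.23 and 0.22 by its 2 probes, and AT2G40200 had 0.04. Beside *AP2C2*, the values ran from −0.34 for a probe of *MAPKKK13* that was not well above background on any array to 0.07 for the other *MAPKKK13* probe.

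The genes most like *AP2C3* and *AP2C2* over the 6 arrays were taken among 26385 probes that were well above background on every array. Likeness was measured by Pearson's r, which for genes with a difference between the groups mostly reflects that difference, and it is given as a description. For *AP2C3* they were *G3Pp1* (AT3G47420, r = 0.998, log2 fold change 0.92), *CLT3* (AT5G12170, r = 0.998, 0.37) and *XERICO* (AT2G04240, r = 0.997, 0.71). For *AP2C2* they were AT1G64190 (r = 0.998, log2 fold change 0.11), AT5G60400 (r = 0.993, 0.37) and AT1G71500 (r = 0.993, 0.09). No gene was on both short lists, although *AP2C3* and *AP2C2* themselves correlated at r = 0.941 over the 6 arrays. None of these 6 genes was a DEP, against 1.17% of all probes.

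**Figure D4:**
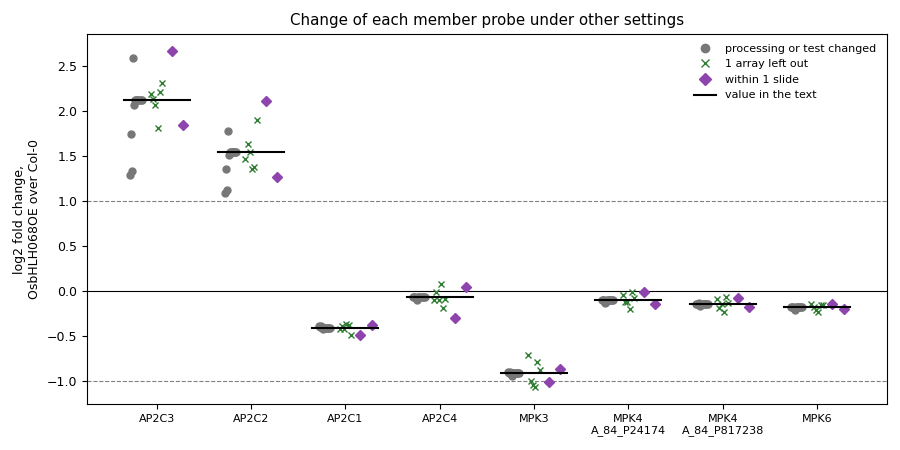
Log2 fold change, OsbHLH068OE over Col-0 (vertical axis), of each member probe under the alternatives, as gray circles for another processing step or test, green crosses for 1 array left out and purple diamonds for a single slide; black lines are the values in the text and dashed lines the fold limit of 1 and −1. All values of *AP2C3*, up to 2.67, and of *AP2C2*, up to 2.11, lie above the limit, *MPK3* crossed it at −1.04 and −1.07 with an array left out and at −1.01 within slide 1, and *AP2C4* fell on both sides of 0.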

How the data were processed

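The authors deposited, for each of the 6 arrays, the intensity of every spot and of its local background (medians) as read by Agilent Feature Extraction 10.7.1.1, and its processed intensity. They also deposited a table of log2 values, which normexp correction and quantile normalization of all spots, followed by log2, gave back to within 5.00e-09. Here normexp (offset 0) was applied to the median signals with limma 3.58.1 in R 4.3.3, 1417 control spots were dropped before quantile normalization of the log2 values, outlier spots were removed and repeat spots averaged. Member values differed from the deposited ones by at most 0.00917. Differences came from lmFit and eBayes over 43603 probes (2.03 prior degrees of freedom), and P-values were adjusted over all of them by Benjamini-Hochberg. The fit was tested on simulated data. Probes were named through transcript accessions in a RefSeq table of TAIR10.1 (34358 matched). Start positions in it served only to order the genes that flank *AP2C3* and *AP2C2*. The array design names another build. Probe sequences came from the supplementary tables and were found for 3 members.

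The members and lists were chosen with earlier results of these data known. The named genes are every member, list genes with a DEP or an adjusted P under 0.05, and the 3 genes most like *AP2C3* and *AP2C2*. Any other gene stands for a step of the cascade, or was picked with its values in view, as were *MEKK2*, *IBR5*, *EPF2*, *EPFL9* and *MPK12* for an unadjusted P under 0.05. *TZF9* was left out of the substrates, because the locus first listed for it carries another name in RefSeq. Alternatives were the deposited log2 values, cyclic loess, a normexp offset of 50 or of 16, signals without background correction, scaling of the processed signal to its 75th percentile, outlier spots kept, dim probes left out, a trended robust prior, the methods' t-test, blocks for slide or replicate number, single slides, each array left out, and an adjusted P in place of the DEP rule.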

Additional observations from a re-analysis of the deposited data

How the results depend on the processing

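All log2 fold changes of *AP2C3*, *AP2C2*, *AP2C1*, *MPK3*, *MPK4* and *MPK6* kept their direction in the 20 alternatives. The DEP calls of *AP2C3* and *AP2C2* held in the 18 that had a test. Within slide 1 the values were 2.67 for *AP2C3*, 2.11 for *AP2C2* and −0.30 for *AP2C4*, which turned to 0.080 without Col-0 replicate 1 and to 0.05 within slide 2. With each array left out, *AP2C3* gave 1.81 to 2.31, *AP2C2* 1.36 to 1.90, *AP2C4* −0.19 to 0.080 and *MPK3* −1.07 to −0.71, with 2 to 3 member DEPs, 4 to 7 cascade DEPs and 451 to 1060 DEPs over all probes, the last without Col-0 replicate 1. With an adjusted P under 0.05 in place of the DEP rule the counts were 1 member probe, 2 cascade probes and 233 of all probes, against 2, 5 and 510. An offset of 50 gave 322 DEPs over all probes, no background correction 320 and the processed signal 927. The share of DEPs that were lower was 67.1%, against 53.5% with the processed signal, 49.4% by adjusted P, and 57.1% to 76.3% with an array left out. Stomatal DEPs stayed at 0. Within arrays, *AP2C3* against the kinases changed by 1.69 with an offset of 50, 2.15 with 16, 1.73 uncorrected, 3.01 with the processed signal and 3.07 within slide 1. *AP2C3* against *AP2C1* gave 1.68 with an offset of 50, 1.72 uncorrected, 3.01 with the processed signal and 3.16 within slide 1. *AP2C4* against *AP2C3* gave −1.36 with an offset of 50, −1.40 uncorrected and −2.97 within slide 1. Within slide 1, *AP2C2* against *AP2C1* gave 2.59, *AP2C4* against *AP2C2* −2.41 and *AP2C2* against the kinases 2.51. The difference of *AP2C1* to the kinases changed sign in 8 of 15 alternatives (−0.11 to 0.14). Whether replicate numbers pair the arrays could not be decided, with 3 arrays per group and the replicates numbered 1 alone on slide 1. Deviations from the group means correlated at 0.26, 0.098 and 0.013 for arrays with the same number. OsbHLH068OE replicate 2 correlated better with Col-0 replicate 3 (0.13). With replicate number as a block, 584 probes were DEPs and 1 had an adjusted P under 0.05, and the adjusted P was 0.118 for *AP2C3*, 0.124 for *AP2C2* and 0.118 for *MPK3*. The methods' t-test gave 396 DEPs and, after Benjamini-Hochberg adjustment, 0 probes under 0.05, against 233 with limma. Unadjusted, 8087 probes were under 0.05 by the t-test and 8634 by limma. The cause of these shifts was not tested. The number of arrays, and for *AP2C3* in Col-0 the small distance of the spots from background, limit the precision.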
